A study of Mus musculus with 58 samples.

Results

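The genes described are 8 of the NF-kB pathway (Nfkb1, Rela, Nfkbia, Tnfaip3, Tnip1, Tnip3, Tnf and Nlrp3), out of 23152 gene symbols in a table of RNA counts from 58 single mouse bone marrow cells. All 8 were found by symbol. They were chosen by role and partly because, in these same cells, Tnip3 counts lay almost wholly in long-term haematopoietic stem cells (LT-HSC) and Tnfaip3 counts in common myeloid progenitors (CMP), so the difference between those gates is given as a description. The cells came from wild type C57BL/6 mice with no treatment named, and were sorted singly. The 34 LT-HSC lacked lineage markers, Flt3 and CD34 and carried Kit and Sca-1. The 24 CMP lacked lineage markers, Sca-1 and CD16/32 and carried Kit and CD34. The labels also carry a passages entry, whose meaning for sorted marrow cells is not given. No label names an animal, its age or its sex, so each gate counts as 1 sample. No test was made, and every interval is a 95% interval for counting error only, which would be too narrow for counts that are reads rather than molecules.

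NF-kB is a family of transcription factors held in the cytoplasm by inhibitor proteins until a signal such as tumour necrosis factor or a microbial product frees them. Once in the nucleus they switch on inflammatory genes and also the genes of their own brakes, among them Nfkbia, which recaptures the factor, and Tnfaip3, which takes apart the ubiquitin chains that carry the signal with the help of binding partners such as Tnip1. In bone marrow the pathway acts in the output of myeloid cells during infection, and tonic inflammatory signals also act on stem cells.

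Total counts per cell ran from 45022 to 860553 in LT-HSC, around a median of 236774, and from 88329 to 706184 in CMP, around 290977. Xist, the RNA of X inactivation, was at 0 in all LT-HSC and in CMP 1 and 2 and was counted in the other 22 CMP. The 4 Y-linked genes examined had 1696 counts in LT-HSC, 95 in CMP 1 and 2 and 1 in CMP 3 to 24. Only CMP 1 and 2 thus shared the pattern of the LT-HSC. With no more than these 2 cells, gate, donor sex and any library pool cannot be separated. Most stem cell and granulocyte progenitor markers followed the gate labels. Procr stood at 119 counts per 1000000 (CPM) in the LT-HSC pool and 0.85 in the CMP pool, and Mpo at 41.1 and 2086. The stem cell marker Ctnnal1 went the other way, at 10.6 and 14.6 CPM. Prtn3, a granulocyte progenitor marker, was higher in CMP but also plentiful in LT-HSC, at 387 and 977 CPM. Genes marking stem cells made up a median of 7.62 of 10000 counts in LT-HSC (range 0.68 to 21.96) and 0.92 in CMP (range 0.034 to 5.19). Of 10 monocyte and macrophage markers, Adgre1 was at 0 in both gates, and the set made up a median of 0.17 of 10000 counts in LT-HSC (range 0 to 0.57) and 1.54 in CMP (range 0.074 to 17.4). Within LT-HSC, cells 1 to 16 held more stem cell marker RNA (median 11.6 of 10000) than cells 17 to 34 (median 4.42). That division by cell number was chosen in earlier work on these values and is given by no label.

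Of the 8 genes, Tnip3 and Rela were at least 2-fold higher in the LT-HSC pool, Nfkbia, Tnfaip3, Tnf and Nlrp3 were at least 2-fold higher in the CMP pool, and Nfkb1 and Tnip1 lay between. Over the 10937 genes with at least 20 counts in both pools together, 22.7% passed 2-fold toward LT-HSC and 28.1% toward CMP, with a median log2 ratio of LT-HSC to CMP of −0.13. The median over the 8 genes was −1.21, with genes absent from 1 pool set to a floor of 3 counts over that pool. Since the genes were picked on this contrast, nothing is read from these counts. With CMP 1 and 2 as the CMP pool, none of the 8 passed 2-fold toward CMP: Tnfaip3, Tnf and Nlrp3 had no count in these cells, and the log2 ratio of Nfkbia moved from −1.90 to −0.28. In that set the sign turned for Nfkb1, from −0.36 to 0.96, and for Tnip1, from −0.52 to 1.12.

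**Figure D1:**
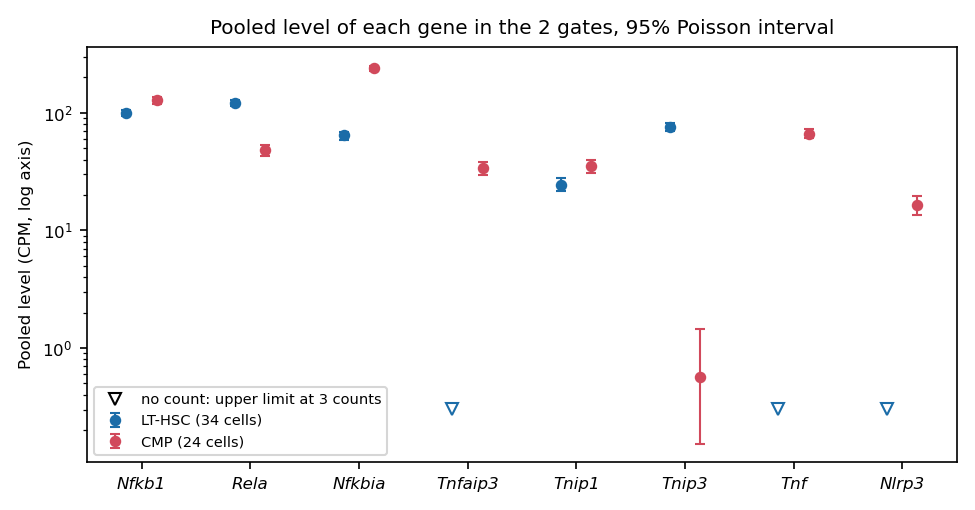
Pooled level (CPM, log axis) of each gene in LT-HSC (blue, 34 cells) and CMP (red, 24 cells), with 95% Poisson intervals. Open triangles mark pools without a count, drawn at the 3-count floor of 0.30 CPM for Tnfaip3, Tnf and Nlrp3 in LT-HSC, while Tnip3 stood at 75.4 CPM across LT-HSC and 0.57 across CMP.

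Nfkb1 and Rela encode the DNA-binding and transactivating partners of the classical NF-kB dimer, and both were found in most cells of each gate. Nfkb1 (chromosome 3, 135584655 to 135691547, minus strand, mm10) ranged from 0 to 238 counts in LT-HSC (median 8.5) and from 0 to 159 in CMP (median 22.5), and the gates overlapped over nearly the whole range. A count was present in 29 of 34 LT-HSC and 23 of 24 CMP. Pooled, it stood at 99.0 CPM across LT-HSC (interval 92.9 to 105) and at 127 across CMP (119 to 136), a log2 ratio of −0.36 (interval −0.49 to −0.23). The 1 cell with the most Nfkb1 was LT-HSC 24, with 238 counts or 764 CPM, and without it the log2 ratio was −0.72. Rela (chromosome 19, 5637483 to 5648130, plus strand) ranged from 0 to 230 counts in LT-HSC (median 2) and from 0 to 70 in CMP (median 5). It was detected in 24 of 34 LT-HSC and 22 of 24 CMP, so a larger share of CMP held it, while the pooled level was higher in LT-HSC, at 121 CPM (interval 114 to 128) against 48.1 (interval 43.2 to 53.5). This 2.51-fold difference fell to 1.75-fold, under the 2-fold mark, with LT-HSC 1 to 16 alone as the LT-HSC pool. The order of the gates for Rela thus differed between the pooled level and the median cell: the median of the cells' levels was 10.002 CPM across LT-HSC and 16.03 across CMP. Rela reached 10 counts in 15 cells among LT-HSC and 10 among CMP, and LT-HSC 2, at 695 CPM, had the highest level of any cell. Both subunits reached 10 counts together in 9 LT-HSC (cells 1, 2, 5, 12, 19, 21, 27, 33 and 34) and 6 CMP (cells 1, 2, 4, 8, 18 and 22).

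**Figure D2:**
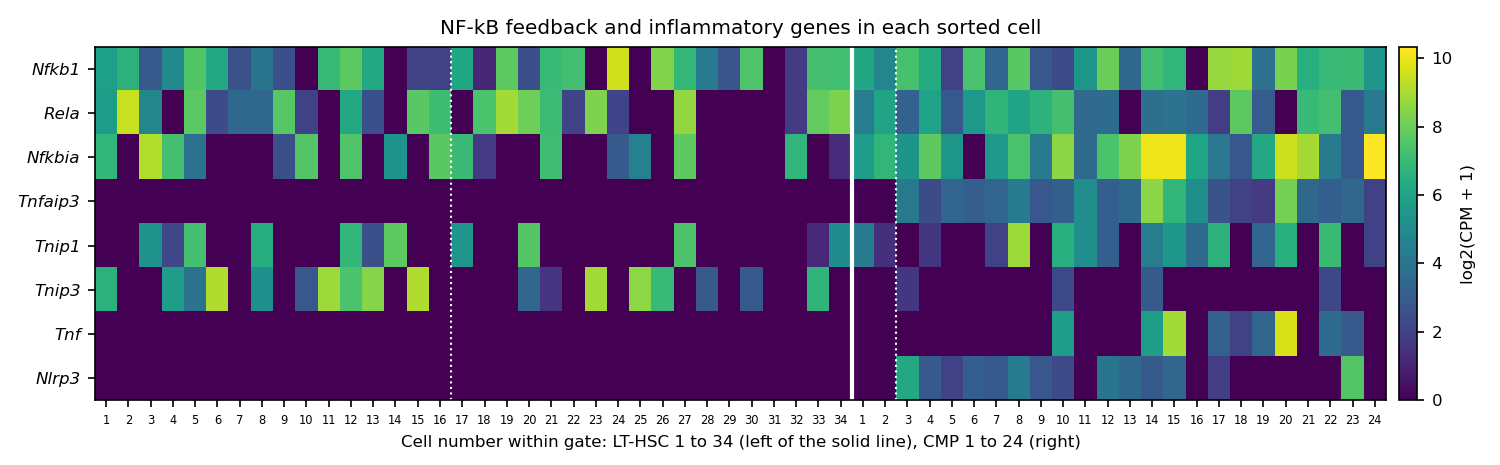
Level of each gene, as log2(CPM + 1), in every cell, with LT-HSC 1 to 34 left of the solid line and CMP 1 to 24 right of it. Dotted lines follow LT-HSC 16 and CMP 2. The rows of Tnfaip3, Tnf and Nlrp3 are empty in all 34 LT-HSC and in CMP 1 and 2, and the row of Tnip3 is nearly empty in CMP.

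Nfkbia encodes IkB-alpha, the inhibitor that NF-kB itself induces and that returns the factor to the cytoplasm (chromosome 12, 55489410 to 55492647, minus strand). It was held by 23 of 24 CMP and by 17 of 34 LT-HSC. In LT-HSC it ranged from 0 to 96 counts (median 0.5), and in CMP from 0 to 433 (median 30). Pooled, it stood at 64.0 CPM across LT-HSC (interval 59.2 to 69.2) and at 238 across CMP (227 to 250), 3.72-fold higher in CMP. CMP 24, 14, 15 and 20 had the highest levels, at 1286, 1083, 1078 and 754 CPM, each above the highest LT-HSC, cell 3, at 567 CPM. The other 20 CMP all lay within the LT-HSC range, from 0 to 489 CPM in CMP 21. After cells were thinned to 97978 counts, which left out the 4 LT-HSC and 2 CMP below that depth, the expected number of cells with an Nfkbia count was 12.3 of 30 LT-HSC and 19.7 of 22 CMP, so the difference in detection remained at equal depth.

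Tnfaip3 encodes A20, the ubiquitin-editing enzyme that ends signalling upstream of NF-kB (chromosome 10, 19000910 to 19015657, minus strand). No LT-HSC held a count, and neither CMP 1 nor CMP 2 did. A limit set at 3 of the 34 LT-HSC is a share of 8.82%, for these cells as 1 sample and without any spread between animals. Each of CMP 3 to 24 held at least 1 count, but 3 cells held most of the 239: CMP 20 had 117 counts (290 CPM), CMP 14 had 56 (368 CPM) and CMP 15 had 23 (109 CPM). The remaining 19 cells had 1 to 8 counts each, 18 of them 1 to 3. At a threshold of 10 counts, Tnfaip3 was thus present in 3 of 24 CMP, and at 1 count in 22 of 24. Against the floor of 3 counts over the LT-HSC pool in CMP it was higher by at least 112-fold, and by at least 60.6-fold without CMP 20. Among genes with at least 100 CMP counts, 0.617% had no LT-HSC count (41 of 6650), and 0.301% had none in LT-HSC, CMP 1 or CMP 2. These conditions were taken from the cells in which Tnfaip3 had no count, so nothing is read from the shares.

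Low counts across CMP 3 to 24 also occurred for other genes. For the 8 genes of the table with at least 100 counts in 1 of these cells and under 10 in every other cell, 29.2% of the remaining cells of CMP 3 to 24 held 1 to 9 counts, against 4.69% of LT-HSC 1 to 16 and 1.39% of LT-HSC 17 to 34. For Tnfaip3 it was 19 of the 19 cells outside its highest 3. These shares pool CMP 3 to 24, but low counts could follow cell number. Counts of 1 to 4 of Tnf lay only in CMP 17 to 23, and those of Nlrp3 only in CMP 4 to 17. Whether the low counts were RNA of those cells was not tested. Over the 24 CMP, Tnfaip3 CPM also had a Spearman rho of −0.58 with the cell's total, and CMP 1 and 2, which had none, were the deepest cells of the gate. In 18 cells the count was 1 to 3, where CPM falls as the total rises by construction, so nothing is read from this rho.

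Tnip1, Tnip2 and Tnip3 encode a family of A20-interacting proteins, and their counts were distributed differently. Tnip1 (chromosome 11, 54910785 to 54962917, minus strand) ranged from 0 to 52 counts in LT-HSC and from 0 to 76 in CMP, with medians of 0 and 1. Pooled, it stood at 24.5 CPM across LT-HSC (interval 21.5 to 27.7) and at 34.97 across CMP (30.7 to 39.6), and without CMP 8, which held 30.8% of its CMP counts, the log2 ratio moved from −0.52 to −0.02. At least 10 Tnip1 counts were held by 8 LT-HSC and 6 CMP, so the gates overlapped. Tnip2 was low in both pools, with 11.3 CPM across LT-HSC and 5.66 across CMP, and 69.6% of the former lay in LT-HSC 33.

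Tnip3 (chromosome 6, 65525313 to 65634040, plus strand) had 749 counts in LT-HSC and 4 in CMP, where CMP 3, 10, 14 and 22 held 1 each. In LT-HSC it ranged from 0 to 165 counts with a median of 1, and 18 of 34 cells held a count, 11 of them at least 10. The highest were LT-HSC 15 (165 counts, 553 CPM), LT-HSC 6 (132 counts, 542 CPM) and LT-HSC 23 (105 counts, 472 CPM), which together held 53.7% of the pool. LT-HSC 11 and 25, which were shallow, reached 449 and 378 CPM from 32 and 17 counts. The other 16 LT-HSC had none, so that the lowest LT-HSC overlapped the CMP. The pooled log2 ratio was 6.89 (interval 5.69 to 8.94), and it ran from 6.57 without LT-HSC 15 to 7.22 without CMP 14. Of genes with at least 100 LT-HSC counts, 2.84% had no more than 4 counts in CMP. That cutoff is the CMP count of Tnip3 itself, so nothing is read from the share. At equal depth the expected number of cells with a Tnip3 count was 12.5 of 30 LT-HSC and 1.60 of 22 CMP, with LT-HSC 11 and 25 among the cells too shallow to enter. Tnip3 and Tnfaip3 met in those 4 CMP only. Since Tnfaip3 had a count in each of CMP 3 to 24 and in no LT-HSC, this follows from the counts on which the pair was picked, and nothing is read from it.

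Promoter sequence is shown for Nfkbia, Tnfaip3, Tnip1 and Tnip3. They were chosen because each holds a match to the kappa B element that NF-kB binds, while their counts were placed differently between the gates. The motif searched was GGG, then any 3 bases, then TTCC or TCCC, on both strands, where matches can overlap,, in the 250 bases before the RefSeq start (GRCm38.p6). Of 32851 such windows, 8.8% held a match. The table had 9 windows for 7 of the 8 genes, Nfkb1 being the exception, and 6 windows of 5 genes held one: Nfkbia, Tnfaip3, Tnip1, Tnip3 and 1 of the 2 windows of Nlrp3. The windows of Rela and Tnf held none. Capitals mark the matches. The sequences run 5′ to 3′ on the gene's strand and end at the base before the start. They are chr12:55492648-55492897 (minus) for Nfkbia, chr10:19015411-19015547 (minus, shortened to leave out an annotated exon) for the more upstream start of Tnfaip3, chr11:54962941-54963190 (minus) for Tnip1, and chr6:65590148-65590397 (plus) for Tnip3, whose window lies between annotated exons of a longer GENCODE gene.
Nfkbia: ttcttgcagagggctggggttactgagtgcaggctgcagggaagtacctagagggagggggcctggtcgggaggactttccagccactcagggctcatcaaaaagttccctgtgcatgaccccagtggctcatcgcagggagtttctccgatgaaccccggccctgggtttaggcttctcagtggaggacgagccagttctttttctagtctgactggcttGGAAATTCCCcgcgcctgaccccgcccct
Tnfaip3: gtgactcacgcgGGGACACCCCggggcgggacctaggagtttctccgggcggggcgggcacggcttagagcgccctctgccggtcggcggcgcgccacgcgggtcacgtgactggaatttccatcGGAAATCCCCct
Tnip1: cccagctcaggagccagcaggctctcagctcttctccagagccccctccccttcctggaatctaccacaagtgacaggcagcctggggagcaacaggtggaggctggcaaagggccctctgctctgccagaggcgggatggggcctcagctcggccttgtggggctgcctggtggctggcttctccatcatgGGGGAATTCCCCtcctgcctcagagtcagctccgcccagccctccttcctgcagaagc
Tnip3: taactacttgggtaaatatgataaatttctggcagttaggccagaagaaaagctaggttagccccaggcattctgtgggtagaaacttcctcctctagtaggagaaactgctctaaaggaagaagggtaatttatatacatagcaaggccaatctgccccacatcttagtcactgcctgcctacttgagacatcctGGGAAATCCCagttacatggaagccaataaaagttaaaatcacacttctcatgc

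The match GGAAATTCCC of Nfkbia lay 29 to 20 bases before the start, and GGAAATCCCC of Tnfaip3 lay 12 to 3 bases before it. A further Tnfaip3 match, GGGACACCCC, lay at 125 to 116. Tnip1 held a run of overlapping matches around GGGAATTCCC at 57 to 48 bases before its start, and the Tnip3 match GGGAAATCCC, at 54 to 45, was found in both orientations. A match is a description of letters, not a bound site.

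Tnf and Nlrp3 are the inflammatory genes of the set: Tnf encodes the cytokine tumour necrosis factor, and Nlrp3 the sensor of an inflammasome, the complex that activates caspase-1. Tnf (chromosome 17, 35199381 to 35202007, minus strand) had no count in any LT-HSC and 470 in 9 of the 24 CMP. CMP 20 held 334 counts (829 CPM), CMP 15 held 101 (480 CPM), CMP 10 held 14 (54.6 CPM) and CMP 14 held 8. The other 5 cells, CMP 17, 18, 19, 22 and 23, held 1 to 4. CMP 20 alone gave 71.1% of the pool. Against the LT-HSC floor Tnf in CMP was higher by at least 220-fold, and without CMP 20 at least 67.6-fold. Nlrp3 (chromosome 11, 59541568 to 59566956, plus strand) had no count in LT-HSC and 116 in 14 CMP, of which CMP 23 held 60 (190 CPM) and CMP 3 held 35 (73.8 CPM). The other 12 cells, CMP 4 to 10, 12 to 15 and 17, had 1 to 4 counts. In CMP it was higher by at least 54.4-fold, and by at least 27.5-fold without CMP 23. Among genes with at least 100 CMP counts, 16.2% had at least 40% of them in 1 cell, as Tnf, Nlrp3 and Tnfaip3 did.

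**Figure D3:**
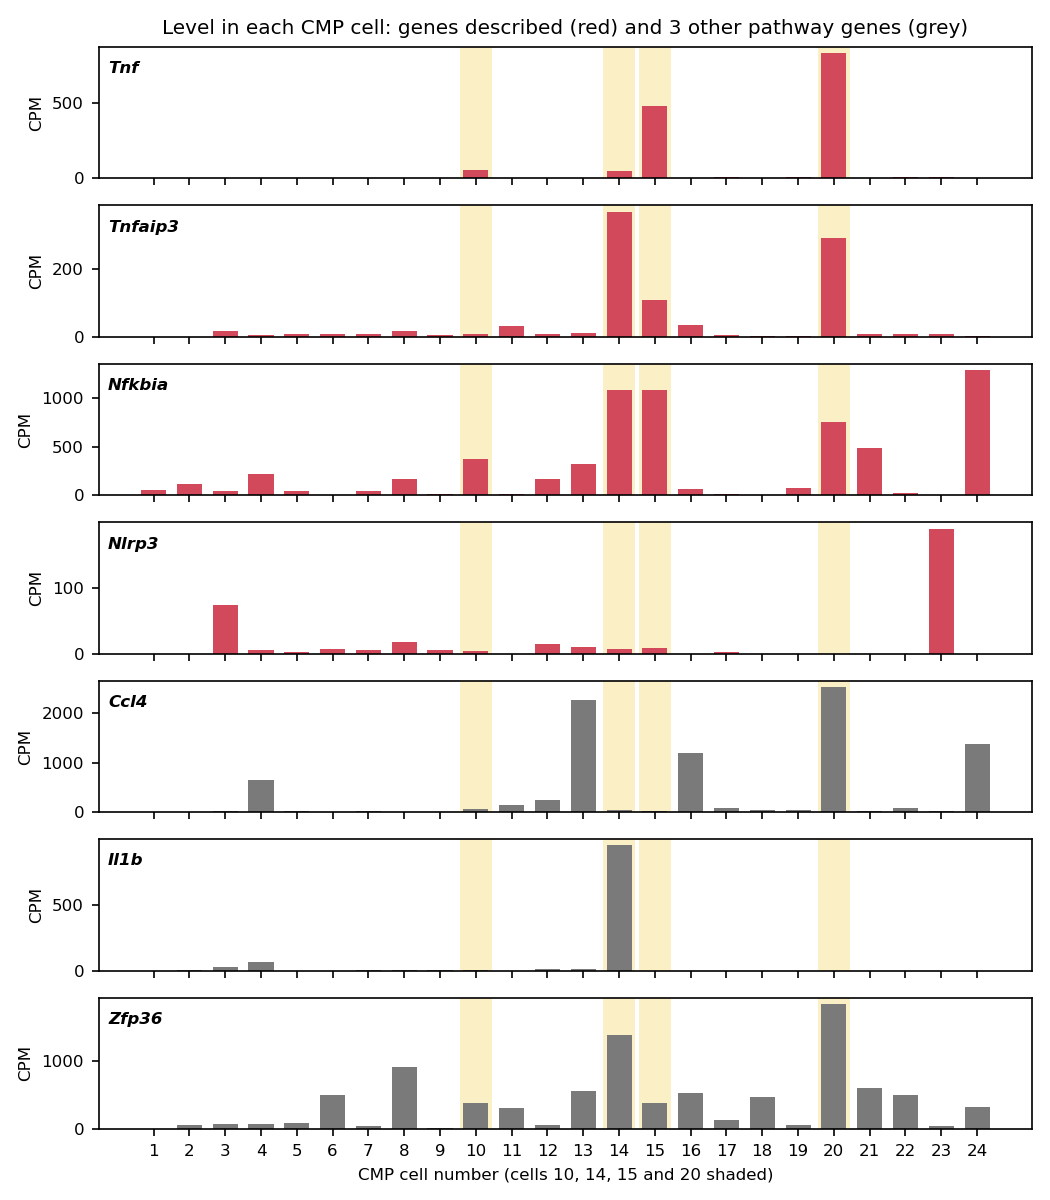
Level (CPM, axes starting at 0) in each of the 24 CMP cells of Tnf, Tnfaip3, Nfkbia and Nlrp3 (red) and of Ccl4, Il1b and Zfp36 (grey). The shaded cells 10, 14, 15 and 20 were picked after their values were seen. Tnfaip3 peaks at 368 CPM in CMP 14, Tnf at 829 in CMP 20, and Nlrp3 in other cells, CMP 23 and 3.

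At least 10 counts of Tnf were held by CMP 10, 15 and 20, and at least 10 of Tnfaip3 by CMP 14, 15 and 20. The shared cells, CMP 15 and 20, also reached 10 counts of Nfkb1 and Nfkbia. CMP 20 reached 10 counts of 5 of the 8 genes, the most of any CMP, where the median CMP reached 2. In CMP 20, Nfkbia stood at 304 counts, Tnf at 334, Nfkb1 at 123, Tnfaip3 at 117, Tnip1 at 37 and Rela and Nlrp3 at 0. CMP 20 also held the most Ccl4, a chemokine gene, at 1019 counts or 2528 CPM, and 736 counts of Zfp36, whose protein speeds the decay of Tnf mRNA. The chemokine gene Ccl5 had 80 of its 87 CMP counts there. CMP 14 had another set: 56 counts of Tnfaip3 and 165 of Nfkbia came with 145 of the 198 CMP counts of Il1b, the interleukin-1 beta gene, 35 of the 37 of the chemokine gene Cxcl2 and 209 of Zfp36, but with 8 of Tnf. CMP 15 held 227 counts of Nfkbia, 101 of Tnf and 52 of the stress gene Gadd45b, with 5 of Ccl4 and none of Il1b. CMP 24, the cell with the most Nfkbia, held 467 counts of Ccl4 and 169 of the chemokine gene Ccl3, but none of Tnf and 1 of Tnfaip3. In CMP 10, 14 counts of Tnf came with 95 of Nfkbia and 2 of Tnfaip3.

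Marker genes of these cells differed, and their part in the pattern was not tested. Granulocyte progenitor markers made up 93.96 of 10000 counts in CMP 20 and 16.1 in CMP 14, where the median CMP had 47.5. Erythroid progenitor markers made up 0.12 in CMP 20, 0.15 in CMP 24 and 8.34 in CMP 14. Mast cell and basophil markers were highest of all CMP in CMP 15, at 37.8 against a median of 0.63. Monocyte and macrophage markers were highest of all CMP in CMP 3, at 17.4, the cell with 35 Nlrp3 counts, and stood at 1.87 in CMP 23, the cell with 60. CMP 3 also held 71 of the 90 CMP counts of Mefv, the pyrin inflammasome gene, and 43 of Casp1, while CMP 23 held 1 of Mefv and 13 of Casp1. Mature neutrophil markers made up 30.7 of 10000 in CMP 3 and 0.44 in CMP 23, a contrast that followed cell number. Each of CMP 3 to 16 lay between 3.78 and 59.4, and each of CMP 17 to 24 between 0.030 and 0.62. No label gives that division, which was seen in the values, and its part in the other differences was not tested.

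In LT-HSC the expressed genes were combined differently. LT-HSC 12 reached 10 counts of all 5 of the genes found in that gate, the most of any LT-HSC, with 59 of Nfkb1, 21 of Rela, 50 of Nfkbia, 32 of Tnip1 and 47 of Tnip3. The median LT-HSC reached 10 counts of 2 genes, and cells 7, 28, 29 and 31 of none. Of the 11 LT-HSC with at least 10 Tnip3 counts, 3 also reached 10 of Nfkbia (cells 1, 4 and 12), 6 of Nfkb1 and 5 of Rela. Over all 34 LT-HSC, 10, 16 and 15 cells reached 10 counts of these genes, so the shares lay near those of the whole gate. In LT-HSC 6, 15 and 23, the cells with the most Tnip3, no Nfkbia was counted, where 17 of all 34 LT-HSC held any count of it. Tnip1 and Tnip3 reached 10 counts together in LT-HSC 12 only.

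**Figure D4:**
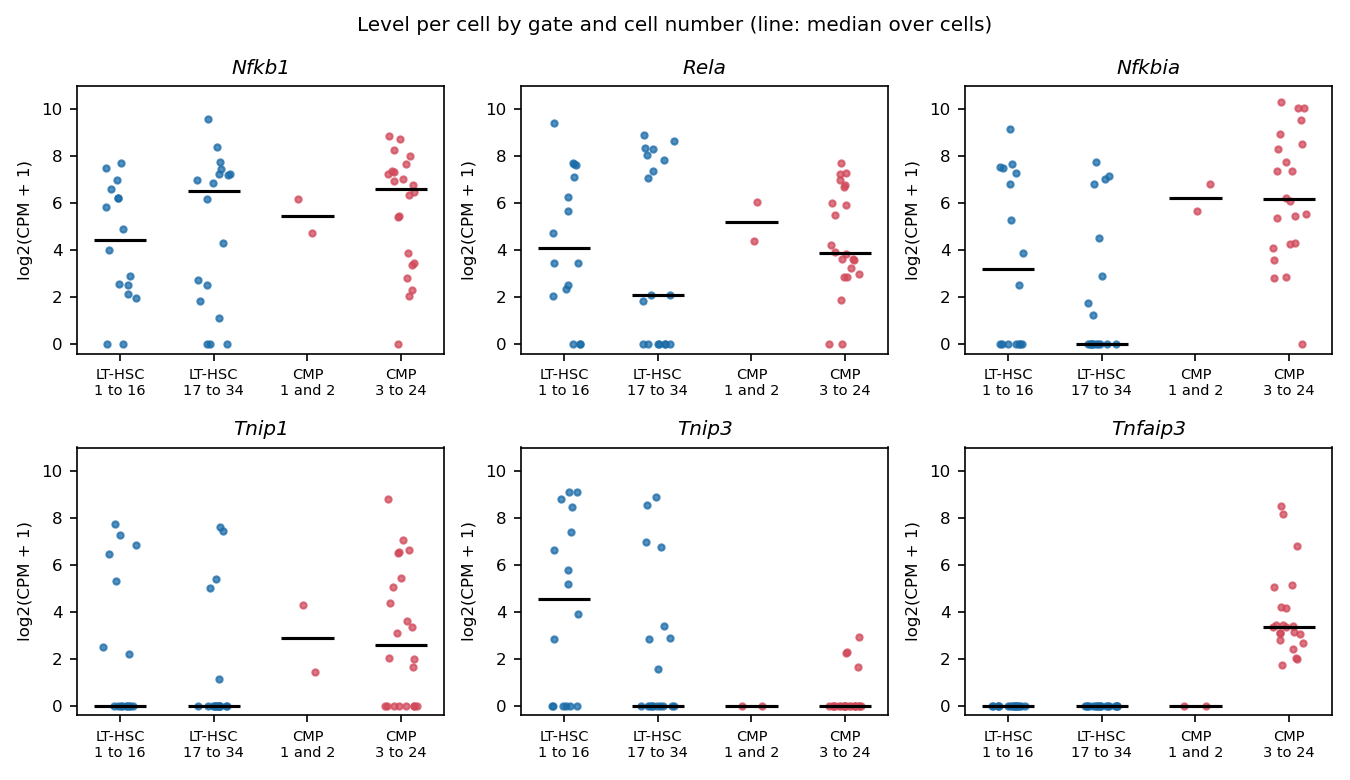
Level per cell, as log2(CPM + 1), of 6 genes in LT-HSC 1 to 16, LT-HSC 17 to 34, CMP 1 and 2, and CMP 3 to 24. Each point is a cell and each line the median over cells. Tnip3 reaches 553 CPM across LT-HSC 15 and lies at or near 0 in CMP, and Tnfaip3 is at 0 in every set except CMP 3 to 24.

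By cell number within LT-HSC, Tnip3 and Nfkbia were higher in cells 1 to 16 and Nfkb1 in cells 17 to 34. Tnip3 stood at 148 CPM across LT-HSC 1 to 16 (interval 135 to 161) and 37.6 in 17 to 34 (interval 33.01 to 42.6), with at least 10 counts in 7 of 16 and 4 of 18 cells. Nfkbia stood at 103 and 43.7 CPM, 2.35-fold higher in cells 1 to 16. Nfkb1 stood at 46.3 and 127 CPM, 2.72-fold higher in cells 17 to 34. Rela, at 84.5 and 140 CPM, and Tnip1, at 28.2 and 22.5 CPM, differed by less than 2-fold. Over the 9669 genes with at least 20 LT-HSC counts, 26.8% were at least 2-fold higher in cells 1 to 16 and 29.5% in cells 17 to 34, so that such differences were common. The blocks also differed in stem cell marker RNA, as given above, and in depth, with median totals of 211044 and 306454. In cells 17 to 34, Nfkb1 had nearly the same pooled level as in CMP, with a log2 ratio of −0.009, and in cells 1 to 16 a log2 ratio of −1.45.

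The rest of the pathway was read from a list of 83 genes grouped by role, of which 69 had at least 20 counts. Of these 69, 30 passed 2-fold toward CMP and 10 toward LT-HSC, and 29 were within 2-fold, the median log2 ratio being −0.72, beside 28.1%, 22.7% and −0.13 over all genes. As shares of the 69, that is 43.5% and 14.5%. The split depended on the cells and the scaling. With CMP 1 and 2 as the CMP pool it turned to 13 higher in CMP and 30 in LT-HSC of 57 genes, and under median-of-ratios scaling, which raised every log2 ratio by 0.15, it was 29 and 16. Averaging CPM over cells gave 26 and 14. Shares over all genes were not computed in these other settings, so nothing about the list itself is read from these changes.

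Among receptors, 1 of 8 was higher in each gate: Tlr4, a receptor for bacterial lipopolysaccharide, in LT-HSC and Il1rap, the shared chain of the interleukin-1 receptors, in CMP, at 1.41 and 13.2 CPM. For Tlr4 the LT-HSC level rested on 22 counts in 2 cells. Tnfrsf1a, the main receptor of tumour necrosis factor, stood at 72.2 CPM across LT-HSC and 36.2 across CMP, with a count in 20 of 34 and 18 of 24 cells. Il1r1 stood at 9.26 and 5.10 CPM, and Ltbr, the lymphotoxin receptor, at 19.5 and 11.04. Of 21 adaptors and kinases, 8 were higher in CMP and 2 in LT-HSC. Rnf31, the catalytic part of the linear ubiquitin ligase, stood at 0.50 CPM across LT-HSC and 15.01 across CMP, and Birc3, another ubiquitin ligase of the receptor complex, at 2.32 and 17.8. Irak2, a kinase of interleukin-1 and Toll-like receptor signalling, stood at 0.60 and 6.09 CPM, and Tab1, a partner of the kinase Tak1, at 1.11 and 3.82.

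The other NF-kB subunits were scarce. Rel stood at 6.34 CPM across LT-HSC, in 2 cells, and 13.03 in CMP, in 10 cells. Relb had 17 counts in LT-HSC and 6 in CMP. Nfkb2, the precursor subunit of the alternative pathway, had 1 count in LT-HSC and 73 in CMP, a log2 ratio of −6.11 (interval −12.00 to −4.16), with 61.6% of the CMP counts in CMP 18. Of 15 further inhibitors, 6 were higher in CMP and 2 in LT-HSC. Cyld, a deubiquitinase, stood at 13.6 and 52.2 CPM, Nfkbid, a nuclear inhibitor, at 5.94 and 23.2, Zc3h12a, an RNase that degrades inflammatory mRNAs, at 0.91 and 4.11, and Itch, a ubiquitin ligase that acts with A20, at 30.1 and 73.9. Irak3, a brake on Toll-like receptor signalling, went the other way, at 29.5 CPM across LT-HSC and 8.92 across CMP. Tax1bp1, an adaptor that brings A20 to its substrates, was level between the gates at 204 CPM in each, the log2 ratio being −0.002 (interval −0.10 to 0.097), although Tnfaip3 itself was counted in CMP alone.

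Of 12 target genes with enough counts, 8 were higher in CMP and 3 in LT-HSC. Several of the 8 rested on 1 CMP cell. Il1b, Cxcl2, Cxcl10 and Ccl5 had no LT-HSC count, so they had enough counts through CMP alone and enter as bounds. A single cell held 73.2%, 94.6%, 70.0% and 92.0% of their CMP counts, and 85.2% of those of Csf1. Ccl4 stood at 44.3 CPM across LT-HSC and 334 across CMP, and Ccl3 at 26.6 and 133, the former almost wholly (97.0%) from LT-HSC 24. Higher in LT-HSC were Icam1, an adhesion molecule gene, at 50.1 and 12.04 CPM, and Bcl2l1, a survival gene, at 35.1 and 7.08, besides Ier3. Il1a, Il6, Cxcl1, Ccl2 and Nos2 had no count in any cell. Of 10 inflammasome genes, 5 were higher in CMP and 2 in LT-HSC. Among those 5, Nlrc4 and Mefv had no LT-HSC count, with 93.9% and 78.9% of their CMP counts in 1 cell each. Casp1, the protease that the NLRP3 complex activates, stood at 6.85 CPM across LT-HSC and 48.1 across CMP, and Nek7, which binds NLRP3, at 6.55 and 22.7, with 98.5% of its LT-HSC counts in 1 cell. Il18, a cytokine cleaved by caspase-1, lay mostly in LT-HSC, with 69.1 against 2.55 CPM, reaching 10 counts in 10 LT-HSC but 1 CMP, as was Gsdmd, the pore protein gene, at 66.0 against 27.3.

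**Figure D5:**
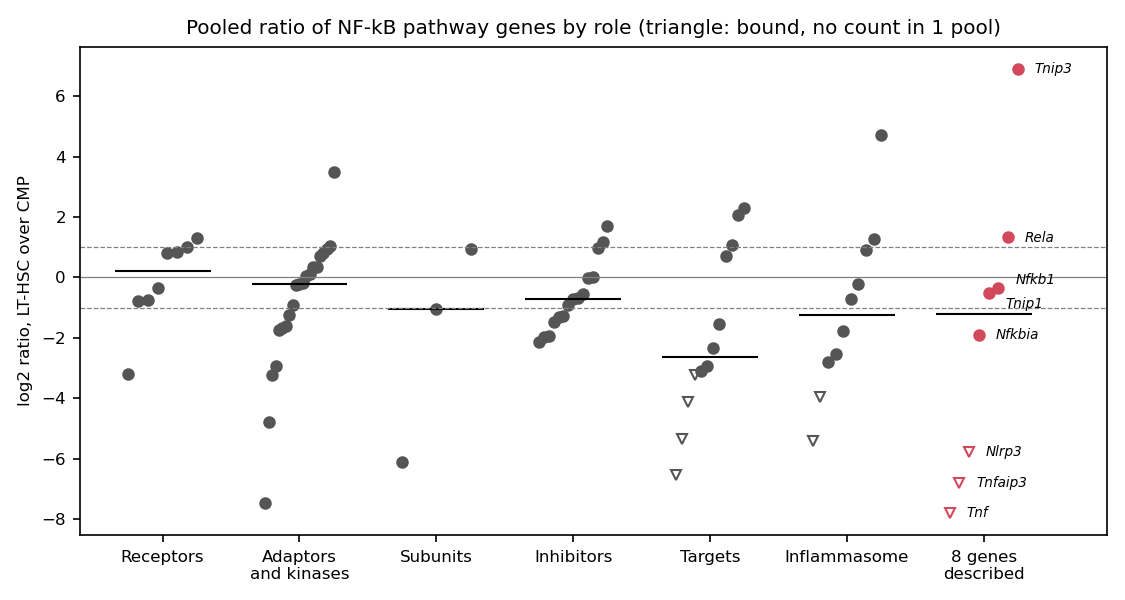
Pooled log2 ratio of LT-HSC to CMP of NF-kB pathway genes with at least 20 counts, by role, and of the 8 genes described (red). Open triangles are bounds for genes without a count in LT-HSC, solid lines are medians and dashed lines mark 2-fold. The median is −2.62 among targets, −1.25 among inflammasome genes and 0.23 among receptors. Several target and inflammasome values rest mainly on 1 CMP cell, as given in the text.

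The genes most like each member were taken by Spearman rho of CPM over the cells of its higher gate, with no p-value. These cells share library depth, and many ranks are tied at 0. For Tnfaip3 they were Slc30a7 (rho 0.73), Ghitm (0.70) and Ccrl2 (0.68) over 24 CMP. For Nlrp3 they were Wash1 (0.84), 1810064F22Rik (0.79) and Tmem248 (0.72). Of the 22 CMP with a Tnfaip3 count, 18 held 1 to 3, and of the 14 with an Nlrp3 count, 12 held 1 to 9. The ranks of both genes thus rest mostly on low counts, and nothing is read from their rho values. For Nfkbia, Mfsd11 led at 0.69, for Tnip1, Klhl7 at 0.71, and for Nfkb1, Cyp4f16 at 0.68. Over 34 LT-HSC, the genes most like Tnip3 included Rpl9 (0.58) and Susd3 (0.55), and Rela was most like Gmps (0.59). Tnf, with a count in 9 CMP, had too few cells. The highest of 8396 or 4896 values is large in so few cells, and no other NF-kB gene of the lists was among the 3 most like genes of any member.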

How the data were processed

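Single bone marrow cells were processed by a modified Smart-seq2 protocol with a cell barcode and a molecular identifier in the oligo(dT) primer and capture of 3' ends, per the labels' protocols. The submitters' processing notes name mm10, TopHat2 2.0.12, HTSeq and Seurat 2.0 but do not say what each did. The authors deposited whole-number counts per gene symbol and cell, and whether these are molecules or reads, and whether strand was used, is not given in the sources used here. All 58 columns were matched to cells by title, and none was identical to another. No cell was removed, and no doublet caller was run on singly sorted cells.

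Each gate was pooled by adding the counts of its cells, and CPM is a share of the pool total, given with exact Poisson intervals. Log2 ratios used 0.5 added to each count and exact conditional binomial intervals. Where 1 pool held no count, 3 counts over that pool stood in, so the fold is a lower bound. Expected cells after thinning came from the hypergeometric distribution, and thinned ratios from 1 seeded draw. Shares used genes with at least 20 counts over both pools. Calculations used Python 3.11.15 and scipy 1.17.1, and the ratio was tested on simulated counts. Coordinates come from GENCODE M21 and promoters from RefSeq.

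The 8 genes, the pathway list and the settings were chosen with earlier results of these data known. Named pathway genes were Tnip2, Rel, Relb, Nfkb2, Tax1bp1, Itch and Cyld, whatever their values, and up to 4 per role with the largest ratio and no cell above 50% of the higher pool. Tlr4, Ier3, Ccl5, Cxcl2, Cxcl10, Csf1, Il1b, Zfp36, Gadd45b, Mefv, Nlrc4 and the targets without a count were added after their values were seen. So were the counts of genes shared by a cell and the account of low counts. Alternatives were other scalings, cells thinned to 97978 counts, 1 added in place of 0.5, leaving out single cells, shallow cells or CMP 1 and 2, parts of LT-HSC, cells without Xist counts, and other count minimums. A gene among those most like Tnip3 is not reported here.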

Additional observations from a re-analysis of the deposited data

How the results depend on the processing

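No paired analysis was possible because the results come from no test and cell numbers do not pair cells across gates. For Tnfaip3, Tnf and Nlrp3, which had no LT-HSC count, no setting could turn the sign, and each gave a ratio under 9 alternatives. With these included, the direction of 75 of 77 pooled log2 ratios of the 8 genes held under the 10 alternatives that could give one. No sign turned when any cell was left out. The exceptions came when cells were limited to those lacking Xist counts, where Nfkb1 was at 0.96 and Tnip1 at 1.12. In that setting the number of the 8 genes at least 2-fold higher in CMP was 0, and of the wider list 30 genes were higher in LT-HSC and 13 in CMP, the CMP pool being 2 cells. When LT-HSC 1 to 16 alone formed their pool, 1 of the 8 passed 2-fold toward LT-HSC, since Rela stood at 0.81. Under median-of-ratios scaling 16 genes of the wider list were higher in LT-HSC. Leaving out each of the 58 cells in turn, the 8 genes stayed at 2 higher in LT-HSC and 4 in CMP, and those of the wider list ran from 8 (without LT-HSC 3) to 15 (without CMP 18) higher in LT-HSC and from 28 to 32 in CMP. Bounds of genes without an LT-HSC count shrink with fewer counts by construction, to at least 38.5-fold for Tnfaip3 with LT-HSC 1 to 16. Requiring 100 counts gave 20 genes of the wider list higher in CMP and 9 in LT-HSC. For the wider list, no alternative had the share over all genes computed beside it, so nothing about the list itself is read from these changes. Detection moved with depth and threshold, for Tnfaip3 from 22 of 24 CMP to an expected 13.5 of 22 after thinning and to 3 of 24 at 10 counts.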
